A study of Mus musculus with 12 samples.

Results

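Accessibility at chemokine receptor genes was examined in the brain macrophages of bone marrow (BM) chimeric mice, where cells of the graft and of the host occupy the same tissue. The genes are 8 receptors, namely Cxcr4, Ccr1, Ccr2, Ccr6, Ccr7, Ccrl2, Cxcr2 and Cxcr3, and a region was taken as a member when the deposited annotation gave one of these names as its nearest gene. This gave 49 of 60288 ATAC-seq peaks in untreated mice and 54 of 54953 peaks after lipopolysaccharide (LPS), a bacterial endotoxin. ATAC-seq marks open chromatin through the insertion of sequencing adapters by a transposase. The 12 libraries form 4 groups of 3. C57BL/6J hosts, whose leukocyte antigen CD45 is of the CD45.2 type, were irradiated with 950 cGy and received congenic marrow of the CD45.1 type, so CD45.1 cells are graft-derived and CD45.2 cells are host microglia that were themselves irradiated. The labels give both populations as wild type and allow 3.5 or 9 months after the transplant. The longer interval is the one named for these mice in the paper, while the labels tie neither to a given mouse. Each mouse gave 1 CD45.1 and 1 CD45.2 library, from cells sorted as Ly6C/G-negative, CD11b-positive and CD45-low. Mice 4, 5 and 6 were untreated, and mice 1, 2 and 3 received 2.5 mg/kg LPS and were killed 12 h later.

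Chemokine receptors are G protein-coupled receptors that guide leukocytes along gradients of small secreted proteins. CXCR4 binds CXCL12 and retains blood cells in the marrow, CCR2 binds CCL2 and brings monocytes into inflamed tissue, and CCR1 binds CCL3 and CCL5. CCR7 leads dendritic cells and T cells to lymph nodes, CCR6 binds CCL20, CXCR3 binds CXCL9 and CXCL10, and CXCR2 is the main chemokine receptor of neutrophils. CCRL2 binds chemerin without signalling in the usual way. Microglia in the healthy brain are known above all for the fractalkine receptor CX3CR1.

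Total tags per library were 8392877.5 to 9107770 in untreated mice and 2966364 to 6556594.5 after LPS, so differences after LPS rest on fewer tags. The CD45.2 library of untreated mouse 4 stood apart, with 1680263.5 tags in merged peaks against 2555696 to 3348848 in the other untreated libraries. Without it, 10 receptor peaks were called in untreated mice instead of 13, and the log2 fold changes were 2.01 at the Cxcr4 and 0.77 at the Ccr1 locus, with both still past the test. All 8 microglia markers had peaks in both tables, but 2 loci in untreated mice and 1 after LPS were higher in CD45.2 cells and 0 in CD45.1 cells, with list medians of −0.20 and 0.05 on the log2 scale. Sall1, a regulator of microglia identity, was among them in both. Its normalized tags in mice 4, 5 and 6 were 123, 187 and 23.2 in CD45.1 cells and 989, 1115 and 1022 in CD45.2 cells. The 3 CD45.1 libraries thus held unequal Sall1 signal. Among border-associated macrophage markers, 6 of 7 tested loci were higher in CD45.1 cells in untreated mice and none in CD45.2 cells, with summed tags of 1018 to 1051 against 413 to 475. Lyve1, a defining marker of these cells, had no peak. Of the monocyte markers, 5 of 8 symbols had a peak in untreated mice, 0 loci passed in either direction, and summed tags were 477 to 612 in CD45.1 and 449.5 to 525 in CD45.2 cells. Of the neutrophil markers 8 of 11 had a peak, with Camp, Mpo and S100a8 at none, 2 loci were higher in CD45.1 and 1 in CD45.2 cells in untreated mice and 1 and 0 after LPS, and summed untreated tags were 509 to 520 in CD45.1 and 415 to 461 in CD45.2 cells. The part of these cells in the results below was not tested, and in sorted pools a larger share of open cells and more tags per cell cannot be told apart.

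The sequences below, from mouse build mm9 (NCBIM37), plus strand, belong to the peaks on which the results turn. The first 5 are among the 10 Cxcr4 peaks called higher in CD45.1 cells of untreated mice, and were picked with their values known. The next 3 are the called peaks of the other receptors. The last 2 are peaks of Ccrl2 and Ccr6 shown for contrast, since they were not called. Capitals mark letters that match a factor motif on either strand, as listed further on. For the promoters of Cxcr4 and Ccr1, the stretch upstream of the annotated exons is shown.
Cxcr4 promoter, chr1:130488878-130489044: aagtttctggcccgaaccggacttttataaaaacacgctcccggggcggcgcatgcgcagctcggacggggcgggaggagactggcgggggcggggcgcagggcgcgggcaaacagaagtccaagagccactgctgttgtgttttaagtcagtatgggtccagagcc
Cxcr4, 22.7 kb upstream, chr1:130511466-130511742: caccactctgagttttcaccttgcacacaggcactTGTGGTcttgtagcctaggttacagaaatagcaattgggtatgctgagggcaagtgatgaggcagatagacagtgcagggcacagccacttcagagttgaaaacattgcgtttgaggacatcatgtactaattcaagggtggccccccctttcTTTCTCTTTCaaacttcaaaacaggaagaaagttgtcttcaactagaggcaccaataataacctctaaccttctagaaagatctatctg
Cxcr4, 30.9 kb upstream, chr1:130519738-130519834: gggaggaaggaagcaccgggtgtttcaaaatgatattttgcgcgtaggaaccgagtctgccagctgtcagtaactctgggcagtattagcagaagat
Cxcr4, 113 kb upstream, chr1:130601829-130601996: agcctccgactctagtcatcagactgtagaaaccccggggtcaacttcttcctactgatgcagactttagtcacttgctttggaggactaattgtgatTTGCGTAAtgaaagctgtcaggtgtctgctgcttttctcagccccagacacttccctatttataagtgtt
Cxcr4, 120.7 kb upstream, chr1:130609532-130609687: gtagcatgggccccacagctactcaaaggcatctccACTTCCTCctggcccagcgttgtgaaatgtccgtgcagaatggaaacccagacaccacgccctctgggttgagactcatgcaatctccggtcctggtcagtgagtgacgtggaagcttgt
Ccr1 promoter, chr9:123883527-123883621: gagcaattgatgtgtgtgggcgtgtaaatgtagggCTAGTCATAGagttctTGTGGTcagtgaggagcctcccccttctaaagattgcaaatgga
Ccr2, 33.6 kb upstream, chr9:123983248-123983352: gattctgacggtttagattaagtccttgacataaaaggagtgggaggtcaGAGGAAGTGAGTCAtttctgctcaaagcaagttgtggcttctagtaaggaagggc
Cxcr3, 35.5 kb upstream, chrX:98964883-98965062: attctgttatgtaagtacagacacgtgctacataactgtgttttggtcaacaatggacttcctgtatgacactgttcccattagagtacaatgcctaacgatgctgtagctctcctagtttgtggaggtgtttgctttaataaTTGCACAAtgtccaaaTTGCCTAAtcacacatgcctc
Ccrl2, 1.77 kb upstream, chr9:110961694-110961888: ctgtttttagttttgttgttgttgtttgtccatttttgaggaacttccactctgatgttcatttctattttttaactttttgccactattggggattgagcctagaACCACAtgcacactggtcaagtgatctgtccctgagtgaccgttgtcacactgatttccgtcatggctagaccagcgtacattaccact
Ccr6, 21.5 kb upstream, chr17:8407390-8407524: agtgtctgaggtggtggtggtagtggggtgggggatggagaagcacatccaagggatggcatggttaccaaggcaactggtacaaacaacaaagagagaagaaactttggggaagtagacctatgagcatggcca

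In untreated mice the Cxcr4 locus was far more open in graft-derived cells, the Ccr1 locus moderately so, and the other 5 receptor loci with peaks did not pass the test. Tags were summed over all peaks annotated to a gene, divided by DESeq2 size factors, and compared over 16174 genes, of which 7.35% were higher in CD45.1 and 7.46% higher in CD45.2 cells at an adjusted p under 0.05. Cxcr4 (ENSMUSG00000045382, chromosome 1, 130484776 to 130488870, minus strand) had 730.2, 803 and 972 normalized tags in the CD45.1 cells of mice 4, 5 and 6 and 191, 172 and 243 in their CD45.2 cells. Every CD45.1 library lay above every CD45.2 library, with means of 835 ± 124 and 202 ± 36.7 (SD, n = 3). The log2 fold change was 2.04 (SE 0.14, DESeq2 adjusted p 8.86e-45). Ccr1 (ENSMUSG00000025804, chromosome 9, 123876959 to 123883525, minus strand) had 106, 82.0 and 132.5 tags in CD45.1 and 51.8, 62.9 and 61.5 in CD45.2 cells. Its log2 fold change was 0.84 (SE 0.23, adjusted p 0.0034). Without the CD45.1 library of mouse 6, the highest of the 3, the Ccr1 value was 0.66 with an adjusted p of 0.0729. With libraries scaled to total tags its adjusted p was 0.436, and with its strongest peak alone the value turned to −0.22 (adjusted p 0.909).

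Among the loci that did not pass, Ccrl2 and Cxcr3 had no overlap between groups, while Ccr2, Ccr6 and Ccr7 did. How many of all loci lay apart in this way was not counted. Among single tested peaks 17.8% lay wholly higher in CD45.1 and 17.7% in CD45.2 cells. Ccrl2 (ENSMUSG00000043953, chromosome 9, 110957339 to 110959774, minus strand) had 328, 362 and 401 tags in CD45.1 and 264, 318 and 281 in CD45.2 cells, a log2 fold change of 0.33 (SE 0.13, adjusted p 0.0692). Cxcr3 (ENSMUSG00000050232, chromosome X, 98926874 to 98929608, minus strand) had 82.0, 78.3 and 90.8 against 50.2, 61.3 and 64.0 tags, a log2 fold change of 0.50 (SE 0.23, adjusted p 0.15). With edgeR's quasi-likelihood test both passed, at adjusted p 0.0457 for Ccrl2 and 0.0487 for Cxcr3. Of 13 alternatives Ccrl2 passed under 2, the other being a DESeq2 fit with an adjusted p of 0.0138, and Cxcr3 passed under 1. Ccr2 (ENSMUSG00000049103, chromosome 9, 124016689 to 124028296, plus strand), the receptor that marks classical monocytes, had 53.9, 60.2 and 68.6 tags in CD45.1 and 52.6, 54.5 and 49.0 in CD45.2 cells. The log2 fold change of Ccr2 was 0.24 (SE 0.25, adjusted p 0.692). Ccr6 (ENSMUSG00000040899, chromosome 17, 8429077 to 8449992, plus strand) had 381, 428 and 362 against 381.5, 485 and 415 tags, a log2 fold change of −0.14 (SE 0.12, adjusted p 0.599). Ccr7 (ENSMUSG00000037944, chromosome 11, 99005510 to 99016391, minus strand) had 108, 124 and 144 against 99.6, 124.5 and 124 tags, a log2 fold change of 0.09 (SE 0.19, adjusted p 0.886). Cxcr2 (ENSMUSG00000026180, chromosome 1, 74200563 to 74207812, plus strand) had no peak in the untreated table. The median over the 7 loci was 0.33, beside −0.00096 over all genes tested.

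**Figure D1:**
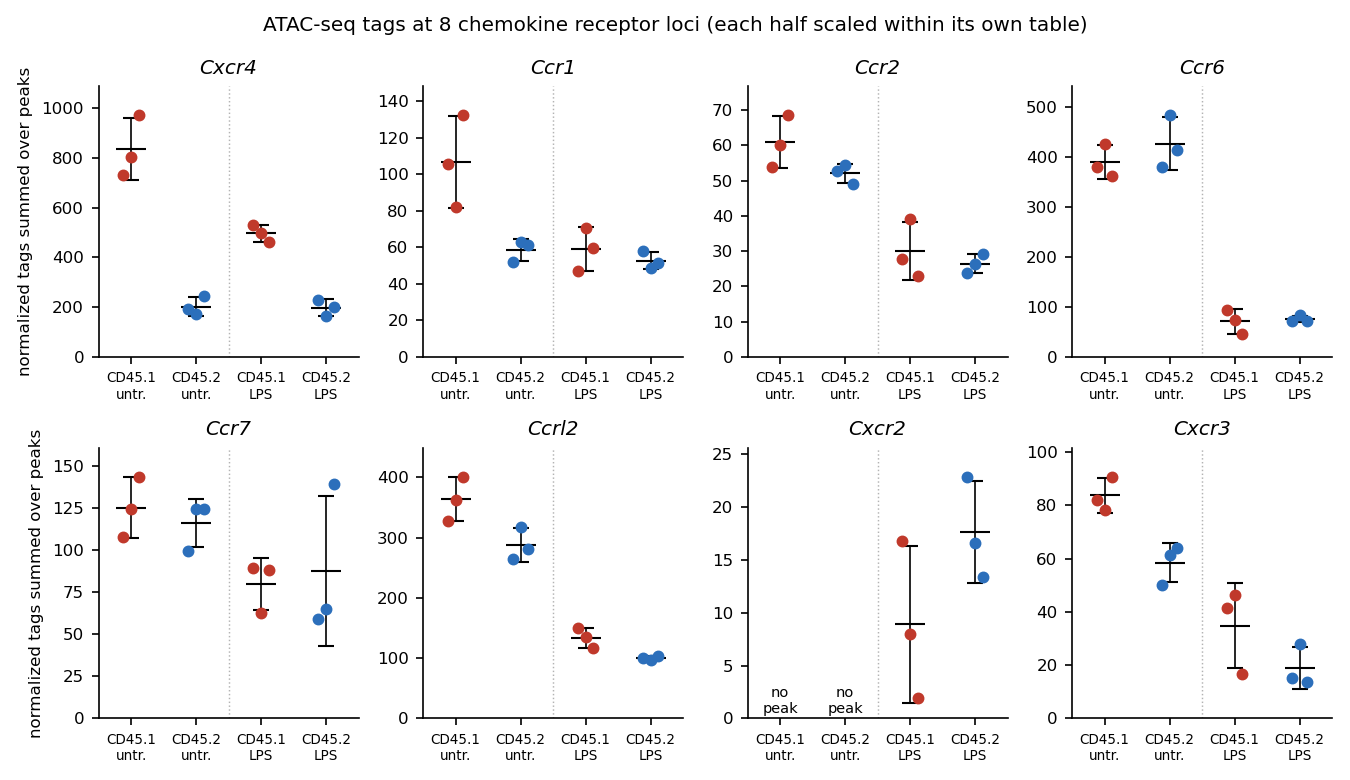
Normalized tags summed over the peaks of each receptor locus (vertical axis, own scale per gene) in each library of the 4 groups, with the mean and SD (n = 3) in black; untreated and LPS libraries were scaled and peak-called separately. The Cxcr4 points of CD45.1 cells lie above those of CD45.2 cells in both treatments, while those of Ccr2, Ccr6 and Ccr7 overlap in both.

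Peak by peak, the graft-host difference sat mainly at Cxcr4. A peak was called when its adjusted p was under 0.01 and its fold over 4. Of 59170 peaks tested in untreated mice, 3.78% were called higher in CD45.1 and 2.65% higher in CD45.2 cells. All 49 receptor peaks passed the filter of more than 10 tags in at least 1 library, and 13 were called higher in CD45.1 cells, of which 10 belonged to Cxcr4 and 1 each to Ccr1, Ccr2 and Cxcr3. With the Cxcr4 peaks set aside, 3 were called. Of the 13, 8 passed the filter through CD45.1 libraries alone, so a low CD45.2 level at them is in part set by the filter. With a filter blind to the groups, a mean of at least 20 tags, 5 were called, namely the promoter and the 22.7, 113 and 120.7 kb upstream peaks of Cxcr4 and the Ccr1 promoter. DESeq2 called 0 receptor peaks higher in CD45.2 cells, with 1 below 0 at an unadjusted p under 0.05, and edgeR likewise called 0, with 1. Whichever 1 of the 6 libraries was left out, 6 of the 13 kept their call, namely the promoter and the 16.01, 22.7, 30.9 and 113 kb upstream peaks of Cxcr4 and the Ccr1 promoter. Of these, the 16.01 and 30.9 kb peaks passed the filter through CD45.1 libraries alone. With the mouse as a block 10 of the 13 stayed.

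The 18 Cxcr4 peaks stretched along chromosome 1 from 85.2 kb downstream of the start site to 240.5 kb upstream, and 15 were intergenic. At each of the 18, every CD45.1 library lay above every CD45.2 library. Over all tested peaks 17.8% showed this. Of the 18, 7 passed the filter on tags through CD45.1 libraries alone, so a low CD45.2 level at them is in part set by the filter. At the promoter (chromosome 1, 130488850 to 130489044) CD45.1 cells had 51.3, 53.4 and 77.9 tags and CD45.2 cells 7.37, 9.68 and 19.5. The log2 fold change at the promoter was 2.29 (SE 0.38, adjusted p 1.96e-07). The adjacent promoter peak 307 bp upstream gave 1.94 (adjusted p 0.00033) and the intron peak 1.64 (adjusted p 1.07e-08), both past the p limit but under 4-fold.

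Upstream, the smallest p was at the peak 113 kb from the Cxcr4 start site, which had 77.0, 105 and 114 tags in CD45.1 cells and 10.65, 7.35 and 13.4 in CD45.2 cells. The log2 fold change there was 3.27 (SE 0.35, adjusted p 1.75e-17). The peak at 120.7 kb had 107, 127 and 174 tags against 27.0, 19.7 and 44.6, a log2 fold change of 2.14 (SE 0.28, adjusted p 5.92e-12). This one lies close to the 4-fold limit, at 1.94 without the CD45.1 library of mouse 6 and 1.87 without the CD45.2 library of mouse 5. Just under the limit was the peak at 130 kb, with 68.6, 89.0 and 128 tags against 29.5, 22.1 and 27.2 and a log2 fold change of 1.88 (adjusted p 1.72e-08). The peak 22.7 kb upstream had 66.2, 61.6 and 99.1 tags in CD45.1 and 9.83, 6.58 and 19.5 in CD45.2 cells, a log2 fold change of 2.65 (SE 0.38, adjusted p 4.44e-10). The peak at 16.01 kb had 22.9, 32.4 and 40.8 against 4.92, 2.32 and 4.46 tags, at 3.05 (SE 0.57, adjusted p 4.6e-06).

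The other called Cxcr4 peaks were weaker and low in host cells. Like the peak at 16.01 kb, they passed the filter on tags through CD45.1 libraries alone. At 30.9 kb upstream CD45.2 cells had 0 tags in all 3 libraries and CD45.1 cells 19.1, 12.3 and 17.4, at least 5.05-fold higher when 3 tags are set in each CD45.2 library (adjusted p 2.44e-05). At 21.7 kb downstream CD45.1 cells had 6.996, 9.58 and 17.4 tags and CD45.2 cells 0, 0 and 0.41, a ratio of 69.1 with an exact interval for counting error alone of 5.79 to 1404. This peak had an adjusted p of 0.0105 without the CD45.2 library of mouse 5. At 83.4 kb upstream the values were 7.93, 15.5 and 13.6 against 0.82, 0.39 and 0.81, a ratio of 19.3 (5.0 to 165). It was no longer called without the CD45.1 library of mouse 5 or the CD45.2 library of mouse 4 or 5, the highest adjusted p being 0.0468. The peak at 5.1 kb had 27.5, 21.9 and 23.4 against 7.37, 1.55 and 4.87 tags, a log2 fold change of 2.64 (adjusted p 0.00021, or 0.0221 without the CD45.2 library of mouse 5). The peak at 23.4 kb had 19.6, 11.4 and 15.8 against 0, 1.16 and 2.84 tags, at 3.04 (adjusted p 0.0028). The call at 23.4 kb was lost with the mouse as a block (adjusted p 0.0182) and without the CD45.1 library of mouse 4 or 6 or the CD45.2 library of mouse 5 or 6 (up to 0.0524). The least different Cxcr4 peaks were the outermost one at 240.5 kb, with 0.72 (adjusted p 0.156), and the one at 132.4 kb, with 0.89 (adjusted p 0.283).

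**Figure D2:**
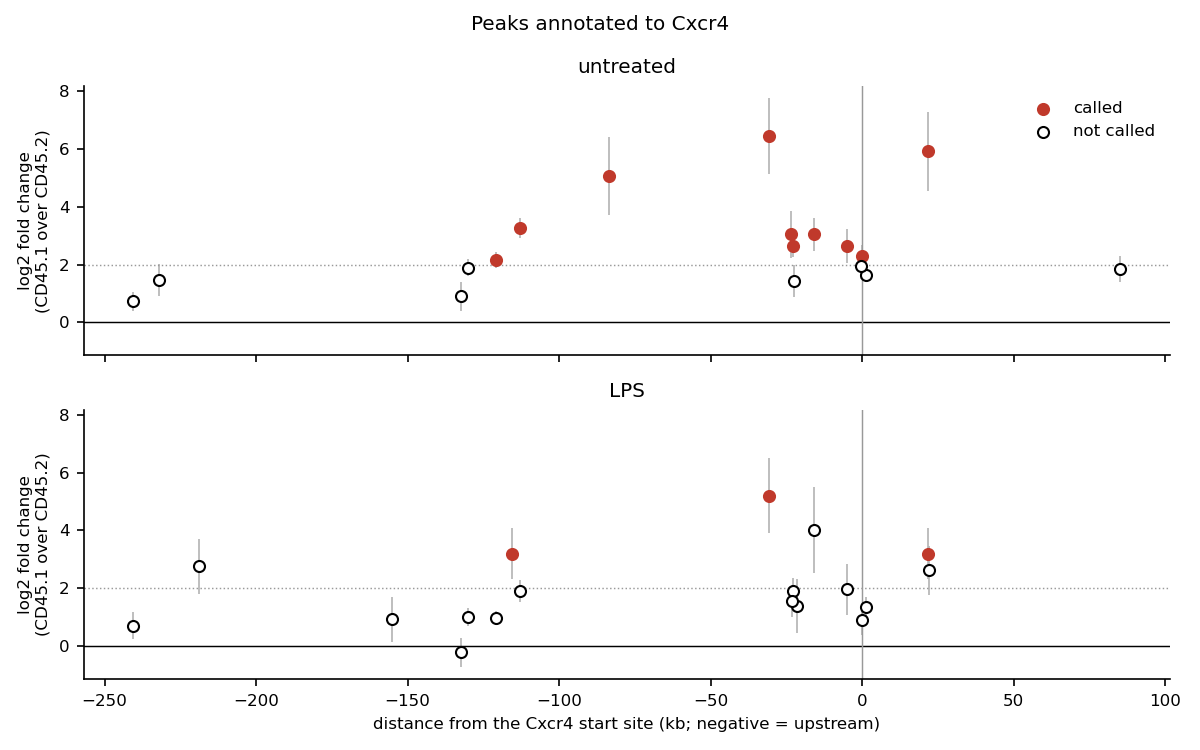
Log2 fold change of CD45.1 over CD45.2 cells with its SE (vertical axis) at each tested Cxcr4 peak, by distance from the start site in kb (horizontal axis), in untreated (top) and LPS-treated mice (bottom); filled points were called and the dotted line marks 4-fold. All 18 untreated points lie above 0, and 17 of 18 do after LPS. Of the 18 points, 7 untreated and 10 after LPS passed the filter on tags through CD45.1 libraries alone, so their sign is in part set by the filter. Over all tested peaks 29645 of 59170 lay above 0 in untreated mice and 24301 of 49180 after LPS.

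Cxcr4 lies 9.47 Mb from Ptprc, the gene of CD45 itself. Marrow that carries CD45.1 on a C57BL/6 background can hold a stretch of chromosome 1 from the original CD45.1 strain, so for Cxcr4 the graft origin of the cells and that stretch cannot be told apart. Peaks of other genes within 25 Mb of Ptprc were called higher in CD45.1 cells at 48 of 1036, or 4.63%, with a median log2 fold change of 0.01. Within 1 Mb of Cxcr4 the count was 3 of 23 peaks of other genes, or 13.04%, with a median log2 fold change of 0.024. These values are from untreated mice, where 3.78% of all tested peaks were called higher in CD45.1 cells. Whether the share near Cxcr4 exceeds that of all peaks was not tested.

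The other receptors had single called peaks beside peaks that differed little. The Ccr1 promoter (chromosome 9, 123883469 to 123883621) had 41.0, 37.9 and 67.5 tags in CD45.1 cells and 8.19, 8.13 and 4.06 in CD45.2 cells, a log2 fold change of 2.92 (SE 0.46, adjusted p 3.11e-08). The authors' per-library lists held this peak in 3 of 3 CD45.1 and 0 of 3 CD45.2 libraries. The Ccr1 intron peak had 19.6, 10.04 and 32.7 against 13.9, 2.32 and 10.1 tags (1.39, adjusted p 0.104), and the peak 22.3 kb downstream of the start site gave −0.17 (adjusted p 0.839).

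For Ccr2, the peak 33.6 kb upstream (chromosome 9, 123983248 to 123983352) had 7.93, 11.9 and 21.8 tags in CD45.1 and 0, 3.87 and 0.81 in CD45.2 cells, a log2 fold change of 2.90 (SE 0.88, adjusted p 0.0096). This call just met the limit and was lost with the mouse as a block (adjusted p 0.0283) and without any 1 of the 6 libraries, with adjusted p up to 0.133 when the CD45.1 library of mouse 6 was left out. The stronger Ccr2 peak at 30.5 kb had 28.0, 36.0 and 30.5 against 27.9, 32.5 and 30.8 tags. No Ccr2, Ccr6 or Ccr7 peak lay within 1000 bp of a start site, whereas Cxcr4, Ccr1, Ccrl2 and Cxcr3 had one.

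For Cxcr3, the peak 35.5 kb upstream (chromosome X, 98964883 to 98965062) had 18.2, 10.5 and 25.05 tags in CD45.1 and 4.92, 0 and 4.46 in CD45.2 cells, a log2 fold change of 2.60 (SE 0.73, adjusted p 0.0042). With the mouse as a block its adjusted p was 0.015, and it was lost when any library but the CD45.1 library of mouse 5 was left out, with values up to 0.123. The Cxcr3 promoter had 28.9, 31.5 and 37.0 against 25.4, 35.6 and 35.7 tags, and its log2 fold change was −0.04 (SE 0.33, adjusted p 0.973).

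No peak of Ccrl2, Ccr6 or Ccr7 was called. At Ccrl2 the peak 1.77 kb upstream had 99.8, 119 and 140 tags in CD45.1 and 78.7, 72.8 and 70.6 in CD45.2 cells, without overlap, and a log2 fold change of 0.69 (SE 0.21, adjusted p 0.0081), far under 4-fold. The Ccrl2 promoter had 63.4, 74.4 and 68.1 against 76.2, 58.8 and 64.1 tags (0.07, SE 0.23, adjusted p 0.92). Of the 10 Ccr6 peaks, 9 overlapped between groups. Over all tested peaks, 17.8% lay wholly higher in CD45.1 and 17.7% in CD45.2 cells. The exception among the Ccr6 peaks was 7.21 kb upstream, where CD45.1 cells had 32.6, 43.3 and 8.71 tags and CD45.2 cells 81.9, 79.3 and 61.7 (−1.38, SE 0.59, adjusted p 0.109). Mouse 6, with the lowest CD45.1 value there, also had the lowest CD45.1 value at Sall1, and any link between the 2 was not tested. At other Ccr6 peaks the CD45.1 value of mouse 6 was in some cases the highest, as at 10.7 kb upstream (77.3). In others it was the lowest, as at 25.2 kb upstream (23.4). The 4 Ccr7 peaks had log2 fold changes of 0.05 to 0.45 and adjusted p of 0.763 or more.

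**Figure D3:**
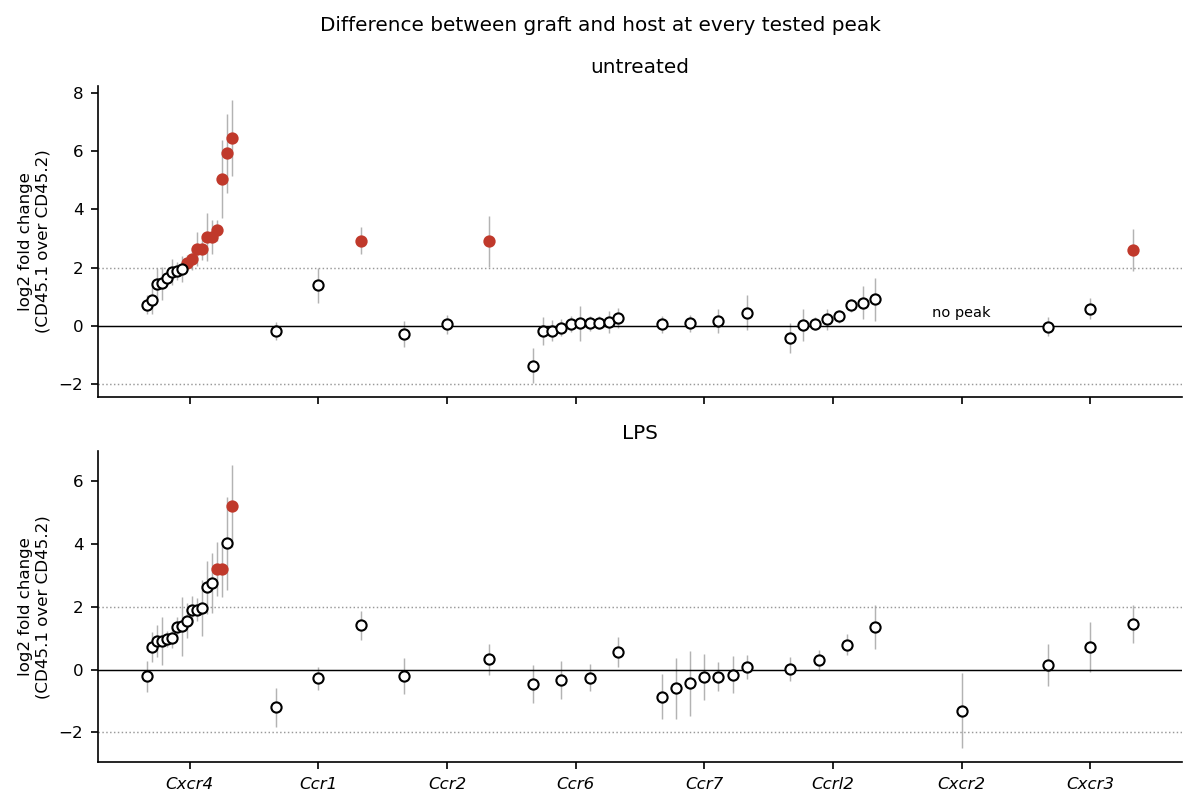
Log2 fold change of CD45.1 over CD45.2 cells with its SE (vertical axis) at every tested peak of the 8 receptors, sorted by value within each gene (horizontal axis), in untreated (top) and LPS-treated mice (bottom); filled points were called and dotted lines mark 4-fold. The 13 untreated calls fall at Cxcr4, Ccr1, Ccr2 and Cxcr3, and the 3 calls after LPS fall at Cxcr4.

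After LPS the Cxcr4 locus was again more open in graft-derived cells, and it was the single receptor locus to pass. Among 15722 loci tested, 4.08% were higher in CD45.1 and 2.98% higher in CD45.2 cells. Cxcr4 had 529, 496 and 463 normalized tags in the CD45.1 cells of mice 1, 2 and 3 and 229, 162 and 201.5 in their CD45.2 cells, a log2 fold change of 1.34 (SE 0.17, adjusted p 1.35e-13). The Ccr1 locus had 47.1, 70.9 and 59.5 against 58.1, 48.9 and 51.2 tags, overlapping, with 0.17 (SE 0.27, adjusted p 0.831). Ccrl2 had 150, 135 and 117 against 99.5, 96.1 and 103 tags (0.43, SE 0.20, adjusted p 0.24). Cxcr3 had 41.4, 46.4 and 16.8 against 15.0, 28.0 and 13.7 tags (0.88, SE 0.43, adjusted p 0.261). Ccr2 had 27.8, 39.1 and 23.05 against 23.8, 26.2 and 29.2 tags (0.14, adjusted p 0.903), Ccr6 93.8, 74.8 and 45.14 against 71.3, 83.0 and 72.0 (−0.08, adjusted p 0.928), and Ccr7 89.2, 62.2 and 88.3 against 59.0, 64.7 and 139 (−0.17, adjusted p 0.855). Cxcr2, with peaks in the LPS table alone, had 16.8, 7.95 and 1.92 tags in CD45.1 and 22.9, 16.6 and 13.4 in CD45.2 cells (−0.93, SE 0.58, adjusted p 0.455). These Cxcr2 levels were low in every library.

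Of the 54 receptor peaks after LPS, 42 passed the filter on tags and 3 were called higher in CD45.1 cells, all at Cxcr4. These 3 passed the filter through CD45.1 libraries alone, and with a mean of at least 20 tags 0 were called. Over all 49180 tested peaks 1.78% were called higher in CD45.1 and 1.19% higher in CD45.2 cells. DESeq2 called 0 receptor peaks higher in CD45.2 cells, with 0 below 0 at an unadjusted p under 0.05, and edgeR called 0, with 1. The called peaks were weak. At 30.9 kb upstream of Cxcr4, CD45.1 cells had 14.1, 14.3 and 8.96 tags and CD45.2 cells 0, 0.87 and 0.30, a ratio of 28.1 (exact interval 5.45 to 181, adjusted p 0.0025). At 21.8 kb downstream the values were 12.1, 13.05 and 19.3 against 0, 0.44 and 3.56 (log2 fold change 3.20, SE 0.87, adjusted p 0.0071). At 115.6 kb upstream they were 19, 7.83 and 13.7 against 1.75, 1.31 and 1.48 (3.20, SE 0.88, adjusted p 0.0075). With the mouse as a block 0 of these 3 calls stayed, with adjusted p of 0.0117, 0.0184 and 0.0566. With 1 library left out, 0 to 3 receptor peaks were called, and 0 without the CD45.1 library of mouse 1 or 2 or the CD45.2 library of mouse 1 or 2. The peak at 30.9 kb kept its call only without the CD45.1 library of mouse 3, that at 21.8 kb only without the CD45.2 library of mouse 3, and that at 115.6 kb in no such case.

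Of the stronger Cxcr4 peaks, those at 113, 120.7 and 22.7 kb passed the p limit after LPS at less than 4-fold, and the one at 130 kb did not pass it (1.00, SE 0.32, adjusted p 0.034). At 113 kb CD45.1 cells had 63.1, 48.9 and 43.9 tags and CD45.2 cells 12.3, 13.5 and 14.8 (1.90, SE 0.37, adjusted p 2.56e-05). The peak at 120.7 kb had 101, 86.8 and 87.8 against 45.5, 45.8 and 49.0 (0.97, SE 0.25, adjusted p 0.0028), and the one at 22.7 kb 44.1, 40.4 and 24.5 against 7.01, 7.41 and 13.7 (1.89, SE 0.45, adjusted p 0.0014). At these 4 every CD45.1 library lay above every CD45.2 library, which 14.1% of all tested peaks showed after LPS. The Cxcr4 promoter had 14.6, 22.2 and 14.6 against 10.5, 6.98 and 10.1 tags and did not pass (0.91, SE 0.52, adjusted p 0.423). The Ccr1 promoter had 18.6, 41.1 and 27.8 against 13.1, 10.03 and 9.50 tags, without overlap, at 1.41 (SE 0.46, adjusted p 0.0364). The other Ccr1 peaks lay the other way after LPS, the intron with 19.8, 25.4 and 25.5 tags in CD45.1 and 27.2, 28.4 and 29.1 in CD45.2 cells (−0.28, SE 0.37, adjusted p 0.831), and the one 9.01 kb downstream of the start site with −1.21 (SE 0.63, adjusted p 0.343).

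The change with LPS was measured on 31 receptor peaks that overlapped by at least 50% in both directions between the tables, in a model of all 12 libraries over 39235 matched peaks. A peak was called changed at an adjusted p under 0.05 and over 2-fold. In CD45.2 cells 7.69% of matched peaks were called higher and 3.69% lower after LPS, and of the receptor peaks 6 were higher and 5 lower. In CD45.1 cells 6.78% were called higher and 4.93% lower, and of the receptor peaks 1 was higher and 4 lower. Untreated and LPS mice differ in depth and in the peak sets as well as in treatment, so these cannot be told apart from the treatment.

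The peaks that rose in host microglia lay at Ccr1 and at the far upstream part of Cxcr4. The Ccr1 intron peak, 3.73 kb from the start site, had 9.25, 1.58 and 6.87 tags in the CD45.2 cells of untreated mice 4, 5 and 6 and 39.1, 41.1 and 42.9 in those of LPS mice 1, 2 and 3. Its log2 fold change in CD45.2 cells was 3.01 (SE 0.45, adjusted p 2.47e-09). In CD45.1 cells the Ccr1 intron had 13.1, 6.74 and 21.5 tags before and 28.7, 37.9 and 37.8 after LPS, a log2 fold change of 1.35 (SE 0.39, adjusted p 0.0058, or 0.071 without the untreated CD45.1 library of mouse 5). The Ccr1 promoter rose in CD45.2 cells from 5.44, 5.53 and 2.75 to 18.9, 14.5 and 14 tags, by 1.86 on the log2 scale (SE 0.50, adjusted p 0.0025). In CD45.1 cells the Ccr1 promoter had 27.4, 25.4 and 44.4 tags untreated and 27.0, 61.2 and 41.3 after LPS (0.40, SE 0.34, adjusted p 0.449), so the CD45.2 cells after LPS were still below every CD45.1 library.

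At Cxcr4, 4 of 12 matched peaks rose in CD45.2 cells, and these were 113, 120.7, 130 and 132.4 kb upstream. The peak at 120.7 kb went from 17.9, 13.4 and 30.2 to 65.6, 66.3 and 72.2 tags in CD45.2 cells (1.71, SE 0.27, adjusted p 2.46e-08). In CD45.1 cells it had 71.3, 85.4 and 114 tags untreated and 146, 129 and 130 after LPS (0.58, SE 0.22, adjusted p 0.0483), under the 2-fold limit. The peak at 113 kb went from 7.07, 5.01 and 9.07 to 17.7, 19.6 and 21.9 tags in CD45.2 cells (1.57, SE 0.39, adjusted p 0.0011), and in CD45.1 cells had 51.4, 70.7 and 75.2 and then 91.4, 72.9 and 65.1 tags (0.23, SE 0.25, adjusted p 0.561). The peak at 130 kb gave 1.41 in CD45.2 (SE 0.32, adjusted p 0.00021) and 0.57 in CD45.1 cells (SE 0.27, adjusted p 0.115). The peak at 132.4 kb gave 1.49 in CD45.2 (SE 0.45, adjusted p 0.0102) and 0.42 in CD45.1 cells (SE 0.43, adjusted p 0.53). The 132.4 kb call was lost with scaling to total tags (adjusted p 0.0723), and without the CD45.2 library of LPS mouse 3 (0.0502) or of untreated mouse 5 (0.0961). The Cxcr4 promoter was not called in either population, with −0.69 in CD45.1 (adjusted p 0.165) and 0.66 in CD45.2 cells (adjusted p 0.349). The single Cxcr4 peak lower after LPS in CD45.1 cells, 85.2 kb downstream, had −1.33 (SE 0.50, adjusted p 0.0425), and −0.48 (adjusted p 0.552) once peak width was taken into account. It also lost its call with scaling to total tags (adjusted p 0.129), without any 1 of the 6 CD45.1 libraries, and without the CD45.2 library of LPS mouse 2 or untreated mouse 5 or 6 (adjusted p 0.0524 to 0.192).

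The peaks that fell after LPS lay mainly at Ccr6, in both populations. At 10.1 kb upstream of Ccr6, CD45.1 cells went from 33.3, 38.0 and 40.9 to 15.8, 10.7 and 8.39 tags (−1.60, SE 0.39, adjusted p 0.00077), and CD45.2 cells from 23.9, 42.7 and 39.8 to 13.9, 15.2 and 15.8 (−1.23, SE 0.36, adjusted p 0.0076). The CD45.2 call was lost without the library of LPS mouse 3 (adjusted p 0.0513) or of untreated mouse 5 (0.0841) or 6 (0.0563). The Ccr6 intron peak 2.10 kb from an annotated start site gave −2.31 in CD45.1 (adjusted p 0.0043) and −2.07 in CD45.2 cells (adjusted p 0.0044), and with peak width taken into account −1.66 (0.0596) and −1.42 (0.0893). After LPS this intron peak had 7.62, 0 and 2.10 tags in CD45.1 and 0, 8.21 and 4.81 in CD45.2 cells. The peak in exon 5 gave −1.89 (adjusted p 0.007) and −1.60 (adjusted p 0.0261), with 8.79, 0 and 4.90 tags in CD45.1 and 8.83, 5.05 and 4.38 in CD45.2 cells after LPS. Among the LPS libraries alone neither of these peaks passed the filter on tags, so both falls end at a few tags. The exon 5 call in CD45.1 cells was lost without LPS mouse 2 (0.0745), and that in CD45.2 cells with peak width taken into account (0.134), with scaling to total tags (0.0682) and without the CD45.2 library of LPS mouse 2 or 3 or untreated mouse 5 or 6 (0.102 to 0.185). At 21.5 kb upstream the value was −1.21 in CD45.2 (SE 0.31, adjusted p 0.0016) and −0.72 in CD45.1 cells (SE 0.29, adjusted p 0.0646). The Cxcr3 promoter fell in CD45.2 cells, from 16.9, 24.2 and 24.2 to 7.57, 12.0 and 4.38 tags (−1.49, SE 0.51, adjusted p 0.0253). That call was lost with peak width taken into account (0.122), with scaling to total tags (0.0701) and without the CD45.2 library of LPS mouse 1 or 3 or untreated mouse 5 or 6 (up to 0.238). In CD45.1 cells the Cxcr3 promoter had −0.70 (adjusted p 0.295). Of the matched peaks of Ccr2, Ccr7 and Ccrl2, 0 were called in either population. The Ccrl2 promoter had 0.63 in CD45.1 (adjusted p 0.0416, under 2-fold) and 0.37 in CD45.2 cells.

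**Figure D4:**
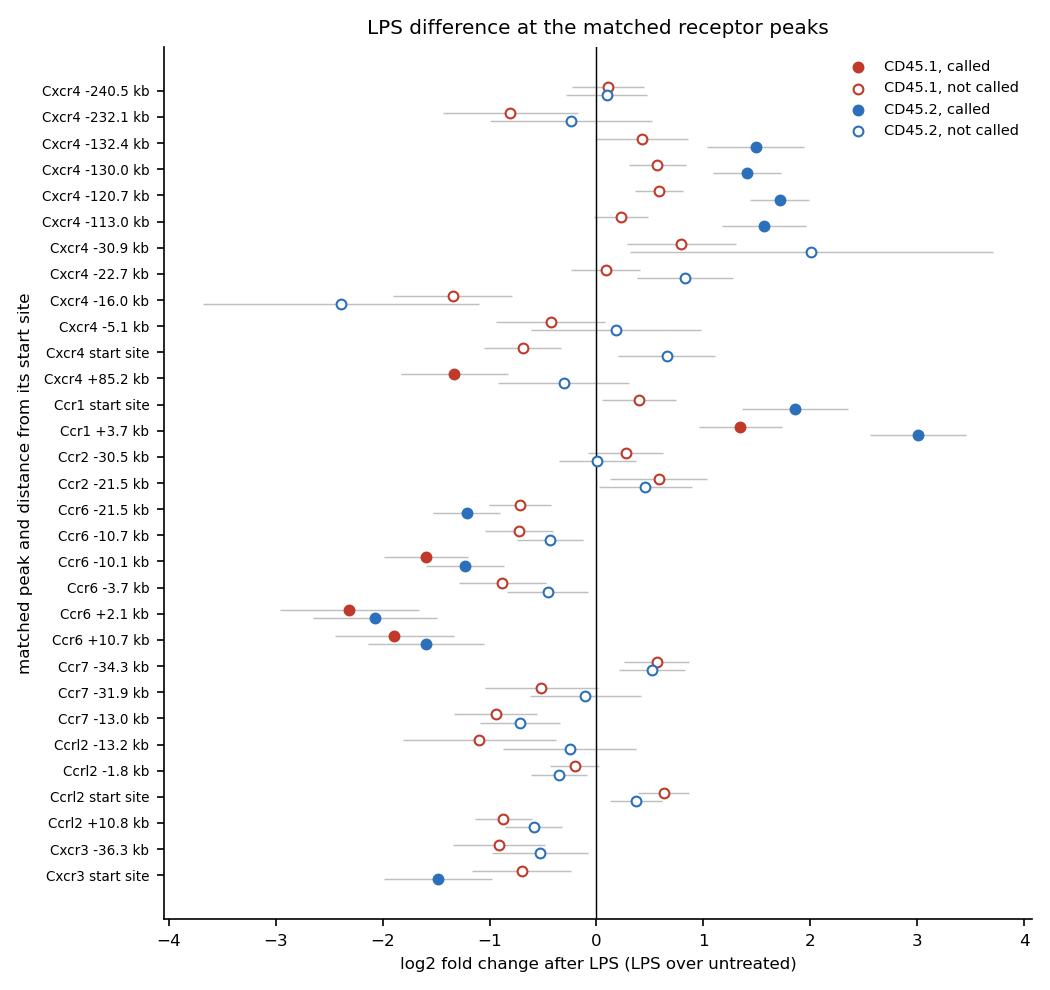
Log2 fold change of LPS over untreated mice with its SE (horizontal axis) at each of the 31 matched receptor peaks (vertical axis, with distance from the start site), in CD45.1 (red) and CD45.2 cells (blue); filled points were called. Blue filled points lie right of 0 at Ccr1 and at 4 upstream Cxcr4 peaks, and filled points of both colours lie left of 0 at Ccr6.

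Whether LPS moved the populations differently was tested by the interaction of origin and treatment. Over all matched peaks 0.245% had an interaction at an adjusted p under 0.05. DESeq2 found 0 among the 31 receptor peaks, with 6 at an unadjusted p under 0.05, and edgeR found 0, with 7. Over all 39235 matched peaks DESeq2 had 2090 at an unadjusted p under 0.05. The 6 were both Ccr1 peaks and 4 Cxcr4 peaks, with negative values, meaning that the log2 fold change of LPS was smaller in CD45.1 cells. The smallest p was at the Cxcr4 peak 120.7 kb upstream, with −1.13 (SE 0.35, unadjusted p 0.0013, adjusted p 0.183). Without the CD45.2 library of untreated mouse 6 that peak passed, at −1.60 (adjusted p 0.0218). At the Ccr1 intron the interaction was −1.66 (SE 0.60, adjusted p 0.389), at the Ccr1 promoter −1.46 (SE 0.60, adjusted p 0.623), at the Cxcr4 promoter −1.35 (SE 0.58, adjusted p 0.68) and at 113 kb −1.34 (SE 0.47, adjusted p 0.344). DESeq2 gave no adjusted p for 13 of the 31 peaks, which had low counts. With the mouse as a block 0 receptor peaks passed.

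**Figure D5:**
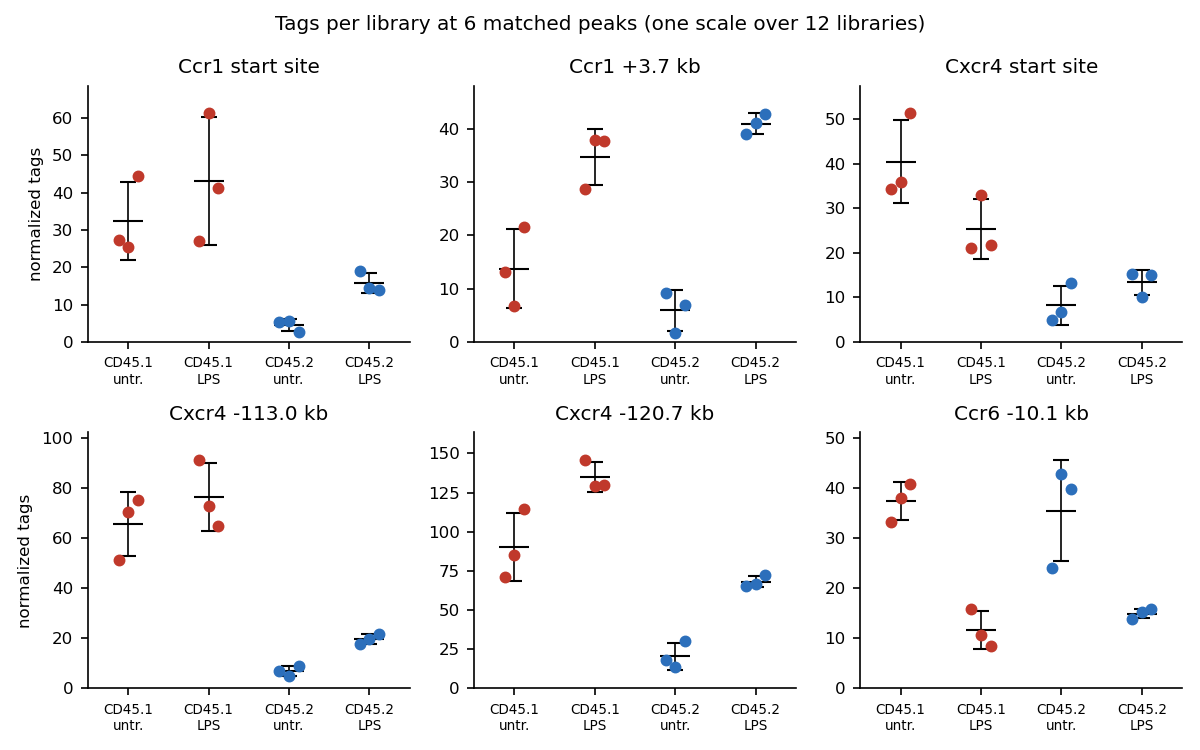
Normalized tags on a scale common to all 12 libraries (vertical axis) at 6 matched peaks of Ccr1, Cxcr4 and Ccr6, by population and treatment, with the mean and SD (n = 3) in black. At the Cxcr4 peaks 113 and 120.7 kb upstream the CD45.2 points rise with LPS and stay below every CD45.1 point of the LPS mice, and at the Ccr6 peak points of both colours fall.

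The receptor peaks were mostly distal, with 38 of 49 intergenic in untreated mice. In the authors' lists for single libraries, 7 of the 18 Cxcr4 peaks were overlapped in CD45.1 lists alone, 1 in CD45.2 lists alone and 10 in lists of both populations, and 9 of the 10 Ccr6 peaks in lists of both. The merged untreated table names other source lists for its peaks, by which the Cxcr4 counts are 11, 1 and 6. To describe their sequence, 200 bp around each peak centre were searched on both strands for 7 motifs, spelled TGANTCA for AP-1, TTGCNNAA for C/EBP, GAGGAAGT for PU.1, TGTGGT for RUNX, GAAA, any 2 bases and GAAA for IRF, GGG, any 2 bases and TTTCC for NF-kB, and CTA, any 4 bases and TAG for MEF2. The RUNX letters stood in 5 of 18 Cxcr4 windows and 13 of 49 receptor windows, against 15.8% of all untreated peaks. The PU.1 letters stood in 3 Cxcr4 and 8 receptor windows (9.46% of all peaks), the AP-1 letters in 3 and 5 (8.12%) and the C/EBP letters in 3 and 6 (9.82%). The IRF letters were in 1 Cxcr4 and 2 receptor windows (3.86%), the NF-kB letters in 0 and 1 (1.41%) and the MEF2 letters in 0 and 3 (3.07%). In the sequences printed above, the peak at 113 kb holds a C/EBP match, that at 120.7 kb a PU.1 match and that at 22.7 kb a RUNX and an IRF match. The Ccr2 peak holds a PU.1 and an AP-1 match that share 1 base, the Ccr1 promoter a RUNX and a MEF2 match, and the Cxcr3 peak 2 C/EBP matches. A match is a run of letters and not a bound site.

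Among other receptors of the family, the atypical receptor Ackr3, which also binds CXCL12, lay in the opposite direction. Ackr3 had 7.50, 11.1 and 4.75 tags in CD45.1 and 78.6, 114 and 107 in CD45.2 cells of untreated mice (−3.70, SE 0.38, adjusted p 3.81e-20), and after LPS 0.82, 0 and 0.48 against 12.3, 9.18 and 11.6 tags (adjusted p 0.0057). After LPS Ackr3 passed the filter on tags through CD45.2 libraries alone, so its low CD45.1 level there is in part set by the filter. Neural cell markers, a list without Ackr3, also held host-high loci, with 3 of 6 higher in CD45.2 and 0 in CD45.1 cells in untreated mice, 2 and 0 after LPS, and summed untreated tags of 964 to 988 in CD45.1 and 1118 to 1140 in CD45.2 cells. Their part in the Ackr3 result was not tested. Of the 16 tested loci of the list of other chemoattractant receptors, 3 were higher in CD45.1 and 1 in CD45.2 cells in untreated mice, and 1 and 1 of 15 after LPS, beside the shares over all loci of 7.35% and 7.46% and of 4.08% and 2.98%. The 3 were Fpr1 (3.34, adjusted p 7.78e-07) and Fpr2 (0.61, adjusted p 0.00021), receptors for formyl peptides, and Ackr4 (0, 0 and 0.42 tags in CD45.2 and 4.69, 15.3 and 4.75 in CD45.1 cells, adjusted p 0.0025). Ackr4 passed the filter on tags through CD45.1 libraries alone, so its low CD45.2 level is in part set by the filter. After LPS the locus higher in CD45.1 cells was Fpr1 again (0.87, adjusted p 0.0271).

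Ligand genes of the 8 receptors and genes of receptor signalling were counted the same way, beside the same shares over all loci. Of 18 tested ligand loci 6 were higher in CD45.1 and 0 in CD45.2 cells in untreated mice, where the median log2 fold change was 0.33, and 3 and 0 after LPS, where it was 0.10 beside −0.01 over all genes. Cxcl1 and Cxcl2, which act on CXCR2, passed in both tables, with 1.79 (adjusted p 4.01e-10) and 1.14 (adjusted p 6.73e-07) in untreated mice and 1.69 (adjusted p 1.24e-07) and 1.46 (adjusted p 4.2e-11) after LPS. Pf4, also a marker on the border-associated macrophage list, had 55.8, 64.4 and 49.1 against 15.4, 14.3 and 11.6 tags in untreated mice (2.04, adjusted p 2.7e-07), and Cxcl5 passed in both tables, at 0.62 (adjusted p 0.005) and 0.75 (adjusted p 0.0161). Of 29 tested signalling loci 1 was higher in CD45.1 cells in untreated mice and 3 after LPS, and 0 in CD45.2 cells in either. The first was Rgs18, a brake on G protein signalling in blood cells (3.56, SE 0.51, adjusted p 1.89e-10), which passed again after LPS (1.71, adjusted p 0.0141) with Gng2 (0.54, adjusted p 0.0209) and Rgs1 (0.54, adjusted p 0.0267). Rgs1 and Rgs18 lie 6.02 and 6.53 Mb from Ptprc.

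Over the 12 libraries, the gene most like Cxcr4 in its log2 locus tags was Cyp4f18 (Pearson r 0.982), followed by Rftn1 (0.981) and Vav3 (0.981), among 13691 genes. For Ccr6 they were Sh2b2 (0.985), Slc45a1 (0.982) and Mir701 (0.981), and for Ccrl2 4921525O09Rik (0.947), Psap (0.944) and Tgfb3 (0.938). These values describe 12 libraries that share 2 peak sets and their depth, and were not tested.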

How the data were processed

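ATAC-seq libraries from 12 sorted samples were used. The submitters' processing notes name mm9, bcl2fastq 2.17.1.14, Bowtie2, Picard 1.108 and HOMER, with no role or order; any shift of read ends is not given in the sources used here. Per the file headers, HOMER called peaks in each library with a fragment length of 300 bp, an FDR of 0.001 and 4-fold over local background, while the methods describe looser calling followed by a test of reproducibility. The lists were merged separately for untreated and LPS mice, so peak width and depth differ between the tables. The deposited merged tables hold estimated counts (tags per peak, in steps of 0.5), not normalized. The authors' per-library lists hold fold ratios over background, deposited per peak; only overlap of at least 1 bp with a listed peak was used.

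Here tags were rounded, and peaks with over 10 in at least 1 library were fitted with DESeq2 1.42.0 (R 4.3.3), with edgeR 4.0.16 as an alternative. All p-values are Benjamini-Hochberg adjusted over all features of a fit unless called unadjusted, and are two-sided. Scripts were tested on simulated data. Lower bounds set 3 tags in each library at 0, and intervals and bounds cover counting error only.

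Same-numbered CD45.1 and CD45.2 libraries came from the same mouse, as the series' design states, and so are pairs; their deviations from the group means correlated at 0.081, 0.082 and 0.087 in untreated and −0.066, 0.061 and 0.149 in LPS mice. The methods name DESeq2 but give no design, and the main fit here has no mouse term; a fit with the mouse as a block was an alternative; LPS and untreated libraries share no mouse, so the change with LPS within a population has no such fit. Other alternatives were scaling to total tags, other filters and limits, an offset for peak width, 1 bp overlap, and leaving out each library.

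The members, gene lists and tests were chosen with earlier results of these data known. The genes and peaks named were all members, called peaks up to the 12 of smallest adjusted p, promoter peaks, matched peaks with an LPS change, up to 3 genes per list and direction, and the 3 genes most like each of the 3 members with the most tags. The Ccr2 peak, Sall1 and peaks described as outside a limit were named after their values were seen.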

Additional observations from a re-analysis of the deposited data

Results flagged for a closer look

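The Ccr1 intron peak, 3.73 kb from the start site, stood out by the sign of its graft-host difference. That sign was positive in each untreated mouse and negative in each LPS mouse, and no mouse was measured under both treatments. With 0.5 added to each normalized value, the log2 ratio of CD45.1 over CD45.2 tags was 0.48 to 1.80 in the 3 untreated mice and −0.44 to −0.11 in the 3 LPS mice. The peak was picked from 31 matched receptor peaks for this pattern, and the share of all matched peaks with such a pattern is not given here. The interaction was −1.66 (SE 0.60, DESeq2 unadjusted p 0.0054, adjusted p 0.389), so the difference did not pass over all matched peaks.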

How the results depend on the processing

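The count of receptor peaks higher in CD45.1 cells of untreated mice, 13, was 5 with a mean of at least 20 tags, 3 without the Cxcr4 peaks (a choice made after the data were seen), 10 with the mouse as a block, and 7 to 12 with 1 library left out, the 7 without the CD45.2 library of mouse 5. After LPS the count of 3 was 9 at an adjusted p under 0.05 and over 2-fold, 0 with a mean of at least 20 tags, 0 with the mouse as a block, 0 without the Cxcr4 peaks, and 0 to 3 with 1 library left out. The 2 loci passed in untreated mice became 4 with edgeR and 1 with scaling to total tags, and 1 to 2 with 1 library left out. With 1 library left out, 0 to 1 interactions passed, and LPS changed 3 to 5 peaks in CD45.1 cells (3 without the untreated CD45.1 library of mouse 5) and 7 to 11 in CD45.2 cells (7 without the CD45.2 library of LPS mouse 3 or untreated mouse 5). The Cxcr4 locus passed in both tables under every alternative run. Values that changed sign were all of peaks and loci that had not passed, except the Ccr1 locus of untreated mice. With the strongest peak alone the loci had −0.22 for Ccr1, 0.0672 for Ccr6 and −0.0810 for Cxcr3 in untreated mice, and −0.25 for Ccr1, 0.58 for Ccr6 and 0.0966 for Ccr7 after LPS. With 1 library left out, untreated values ran from −0.159 to 0.0456 at the Cxcr3 promoter, from −0.0160 to 0.147 at the Ccrl2 promoter and from −0.0186 to 0.189 at the Ccr7 locus. After LPS they ran from −0.0775 to 0.307 for Ccr2, −0.350 to 0.165 for Ccr6 and −0.357 to 0.362 for Ccr7, and Ccr6 had 0.0322 with scaling to total tags. The causes were not tested. Of 678 values of single peaks and loci under alternatives, 579 kept direction and call, 81 lost the call, 3 gained it and 15 changed sign. Depth after LPS, as low as 2966364 tags, limits what those tests can detect.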
